A study of Mus musculus with 8 samples.

Results

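Cycling CD8 T cells are the killer T cells of a tumour that are copying their DNA or dividing. They were taken here from a pooled single-cell table of 53528 cells, whose tumours had been raised from the mouse hepatoma line Hepa1-6. A cell counted as a CD8 T cell when its mean value was at least 0.8 over Cd8a and Cd8b1, at least 0.8 over Cd3d, Cd3g and Trbc2, below 0.5 for Cd4 and below 0.8 over the macrophage genes C1qa and C1qb. It counted as cycling when its mean over Pclaf, Rrm2, Ube2c and Cenpf was also at least 0.8 and its mean over the granzyme genes Gzmc, Gzmd, Gzme and Gzmf was below 1. All these values are the deposited ones, in natural log units. The rule gave 2555 cycling cells among 9973 CD8 T cells, and the other 7418 CD8 T cells were the main comparison. They include all 479 CD8 T cells at or above the granzyme limit, 146 of which met the cycling threshold.

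The labels give 4 groups of tumours, with a cDNA and an oligo entry for each. Tumours of WT cells came from animals injected intraperitoneally with PBS or with an antibody against PD1, and tumours of Soat1-edited cells came from animals given the same injections. The edited tumours are called knockouts in the titles and knockdowns in the genotype field. All groups share the Hepa1-6 line, and the sources used here give neither the strain nor the age of the animals. The last number of a cell's name divides the table into 6 sets, and nothing ties a set to a group. No effect of Soat1 editing or of the antibody is therefore given, and the sets are described as 6 unassigned samples of 1 pooled table, with no test.

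A dividing cell switches on the genes for DNA synthesis before those for chromosome segregation, so the 2 groups of transcripts peak at different times of the cycle. Pclaf (a partner of the replication clamp PCNA) and Rrm2 (a subunit of ribonucleotide reductase, which makes DNA precursors) belong to the earlier wave. Ube2c (which serves the anaphase-promoting complex) and Cenpf (a kinetochore protein) belong to the later wave. CD8 T cells recognise peptides on class I MHC and kill with perforin and granzymes, and those that meet their antigen can divide many times.

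The share of CD8 T cells that were cycling by the rule lay between 21.4% and 30.8% in the 6 sets. Cells at or above the granzyme limit that met the cycling threshold are not counted as cycling in it. It was 30.8% in set 1 (324 of 1052 cells, 95% CI 28.0 to 33.7), 21.4% in set 2 (283 of 1323, CI 19.2 to 23.7) and 27.4% in set 3 (521 of 1901, CI 25.4 to 29.5). In sets 4, 5 and 6 it was 22.6% (433 of 1913, CI 20.8 to 24.6), 25.0% (330 of 1318, CI 22.7 to 27.5) and 26.9% (664 of 2466, CI 25.2 to 28.7). Set 1 was highest and set 2 lowest, and the intervals of sets 3, 5 and 6 overlapped one another. The interval of set 1 also overlapped those of sets 3 and 6, and that of set 2 those of sets 4 and 5. The intervals are exact Clopper-Pearson intervals and cover counting error only. Over all sets the share was 25.6% (CI 24.8 to 26.5), and cycling CD8 T cells were 4.77% of all cells, with a range of 3.46% in set 1 to 7.50% in set 6. CD8 T cells as a whole were 11.2% of the cells of set 1, the lowest share of any set. They were 24.5% of the cells of set 4 and 27.8% of those of set 6, the highest share.

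**Figure D1:**
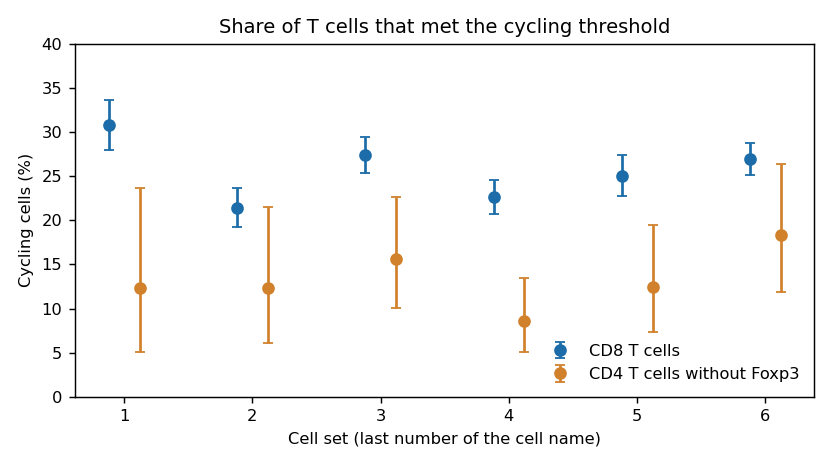
Share of cells (percent, y axis) that met the cycling threshold in each cell set (x axis), for CD8 T cells in blue and for CD4 T cells without Foxp3 in orange, with 95% Clopper-Pearson intervals as bars. CD8 T cells lie between 21.4% and 30.8% and CD4 T cells between 8.63% and 18.3%, with the CD8 point above the CD4 point in each of the 6 sets.

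The same threshold was met by a smaller share of helper T cells. CD4 T cells had Cd4 at 0.8 or more, a CD8 mean below 0.3 and the same CD3 and macrophage limits. Of those with Foxp3 below 0.5 (Foxp3 is the defining factor of regulatory T cells), 94 of 724, or 13.0% (CI 10.6 to 15.7), were cycling, with a range of 8.63% to 18.3% over the sets. Foxp3-bearing CD4 T cells reached 22.8% (36 of 158, CI 16.5 to 30.1). CD8 T cells rich in granzymes C to F, which the rule keeps out of the cycling class, met the threshold in 146 of 479 cells, or 30.5% (CI 26.4 to 34.8), and in 17.6% to 36.7% over the sets. Depth was not matched between these classes, and its part in the difference was not tested.

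The score had no empty zone at its threshold. Of the 9494 CD8 T cells below the granzyme limit, 50.1% scored below 0.2, 184 lay from 0.7 to 0.8, 185 from 0.8 to 0.9, and 6.52% at 1.6 or more. The class is thus a range of a score. Cells just inside (0.8 to 0.9) and just outside (0.7 to 0.8) the threshold had mean values, close to each other by construction, of 1.61 and 1.44 for Pclaf, 0.713 and 0.644 for Rrm2, 0.726 and 0.675 for Ube2c, and 0.355 and 0.246 for Cenpf. Mki67, the proliferation antigen Ki-67, was at 1.12 just inside and 0.957 just outside, and Cd8a at 1.92 and 2.00. The median score of cycling cells was 1.33 and the highest 2.68.

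**Figure D2:**
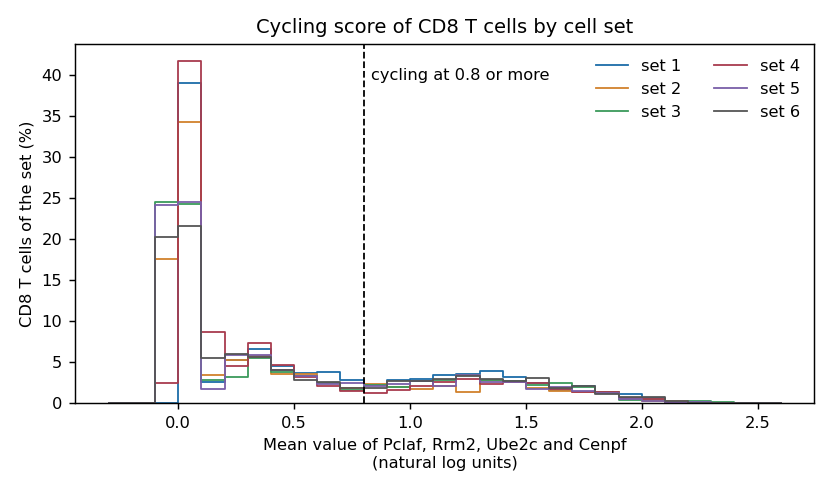
Distribution of the cycling score, the mean deposited value of Pclaf, Rrm2, Ube2c and Cenpf in natural log units (x axis), as the percent of the CD8 T cells of each set with granzymes C to F below the limit (y axis), 1 line per set in steps of 0.1. Over all sets 50.1% of these cells score below 0.2, and the dashed line at 0.8 crosses a low plateau with no gap between the cells left of it and the broad hump right of it.

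Rule genes behaved alike in every set, which is how the class was made and is no result. Mean Pclaf in cycling cells was 2.00, 1.99, 1.98, 2.03, 1.97 and 2.05 in sets 1 to 6, against 0.346, 0.205, 0.238, 0.235, 0.244 and 0.318 in other CD8 T cells. Mean Cd8a was 2.00, 1.93, 1.92, 1.90, 1.94 and 1.84 in cycling cells and 2.21, 2.18, 2.19, 2.12, 2.17 and 2.12 in the others. The rule required CD8 transcript in both classes, so its presence is no result, and no direction is drawn for it. Trac, the constant chain of the T cell receptor alpha gene and no part of the rule, stood at 277 CPM in cycling and 296 CPM in other CD8 T cells of set 1 (ratio 0.937, interval 0.858 to 1.02). CPM are UMIs per 1000000 UMIs of the cells' totals. Trac is 1 of 5 T cell genes outside the rule, and the other 4 had intervals below 1. The 5 genes summed to 1561 CPM in cycling and 2030 CPM in other CD8 T cells, with a median log2 ratio of -0.19. Their presence in both classes goes with the label, while the CD8 and CD3 genes were fixed by the rule.

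Counts could be recovered for set 1, and ratios of CPM come from its 320 cycling and 722 other CD8 T cells, after doublet calls were left out. Their UMIs summed to 3407549 and 3706957. Cycling cells were deeper, with a median of 8680.5 UMIs against 4083. Before doublet calls were left out the medians were 8735 UMIs (quartiles 5456 and 13752) and 351 genes of the table detected, against 4109.5 UMIs (quartiles 2438 and 6675) and 213 genes. Doublet calls were 4 of 324 cycling cells (1.23%) and 6 of 728 other cells (0.824%), and the deepest cycling cell had 58521 UMIs. A number after the letter N in the cell names, whose meaning is not given in the sources used here, was above 1 in 31.8% to 53.0% of cycling and 21.4% to 37.9% of other cells over the sets. The part of these differences in the results was not tested, and values are given below also for cells of 3000 to 12000 UMIs, a range in which the medians were 7003 UMIs for 185 cycling and 5498 for 419 other cells. A ratio has an exact conditional Poisson interval, which covers counting error in set 1 alone.

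RNA of other cell types was present in both classes. The 16 hepatoma genes of the table, among them Afp, Alb and Apoa1, summed to 2233 CPM in cycling and 2412 CPM in other CD8 T cells of set 1, with means over the list of 0.522 to 0.547 and 0.478 to 0.522 over the sets. Both sums were above those of the 5 T cell genes outside the rule, 1561 and 2030 CPM in the same order. Summed macrophage genes stood at 496 and 562 CPM, NK genes at 384 and 507 CPM, gamma-delta T cell genes at 120 and 183 CPM, and fibroblast genes at 35.2 and 39.9 CPM. Single members of these lists were at 0 UMIs in the cycling cells while other members were present: Serpina1e, 1 of 16 hepatoma genes, Klrb1c, 1 of 7 NK genes, Trdc, 1 of 3 gamma-delta T cell genes, and Pdgfrb, 1 of 7 fibroblast genes. The part of this RNA in the results was not tested.

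Of 1044 genes outside the rule with at least 20 UMIs over both classes, 125 were at least 2-fold higher in cycling cells, 12% of those measured, and 40 were at least 2-fold lower, 3.83%. The median log2 ratio over all 1044 genes was -0.11. Lists of genes for DNA replication, mitosis and histones held 104 of the 125 higher genes and none of the 40 lower ones. Of the 125 higher genes, 123 had a higher mean value in cycling cells of each of the 6 sets, while 16 of the 40 lower genes were lower in each set. Of all 1984 genes, differences of mean deposited values were above 0 in each set for 473 (23.8%) and below 0 for 131 (6.6%), so that scale holds more genes above than below. The cells were chosen by cell-cycle genes, so the counts describe the class and support no statement beyond it.

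Mitosis genes had the highest ratios as a group. Of 89 such genes outside the rule, 86 were at least 2-fold higher in cycling cells and none 2-fold lower, with a median log2 ratio of 2.26 and a range of -0.29 to 3.29. On the deposited scale 85 were higher by at least 0.1 in each of the 6 sets, a size that 180 of 1984 genes reached (9.07%). Top2a, the topoisomerase that untangles chromosomes, had 964 CPM in cycling against 182 in other CD8 T cells of set 1, a ratio of 5.29 (interval 4.86 to 5.75). Mki67 had 528 against 103 CPM, a ratio of 5.11 (4.57 to 5.72). Birc5, or survivin, had 472 against 89.0 CPM. All these genes were higher in cycling cells of every set, by 1.69 to 1.94 natural log units for Top2a and by 1.26 to 1.48 for Mki67. The steepest ratios belonged to genes that other CD8 T cells scarcely held. Aurkb, the kinase that corrects spindle attachment, had 506 UMIs in cycling and 60 in other cells, a ratio of 9.17 (7.01 to 12.2). Knl1, the kinetochore scaffold, had a ratio of 10.9 (7.44 to 16.6), Kif11, a spindle motor, 7.85 (6.48 to 9.58), and Ccna2, cyclin A2, 7.54 (6.37 to 8.97).

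Sequence upstream of these genes was searched because they were high together. Many mitotic genes are known to carry CCAAT boxes, bound by NF-Y, and many a TTTGAA element, the cell cycle genes homology region read by the DREAM and MYBL2-FOXM1 complexes. RefSeq promoters of build GRCm38.p6 (250 bases before to 50 after the start) were found for 72 of the 89 mitosis genes. CCAAT was in 51 of the 72, or 70.8%, on either strand, against 37.9% of all 27025 promoters. At least 2 copies were in 48.6% against 12.2%, TTTGAA was in 61.1% against 18.1%, and both motifs were in 48.6% against 7.12%. TTTGGCGC or TTTCCCGC, forms of the E2F site of replication genes, was in 5.56% of the mitosis promoters and 1.63% of all. These matches describe the letters only. For DNA replication genes 23 of 33 had a promoter in the table, under 80%, so the same search is void for them.

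The last 140 bases before the start of 2 rule genes, Ube2c and Cenpf, and of 3 mitosis genes are shown because their motifs can be read directly. Capitals mark CCAAT, which reads ATTGG where it lies on the opposite strand. They also mark TTTGAA, which then reads TTCAAA. No 2 of the motifs shown share a base. Ube2c lies at chr2:164769789-164769928 on the plus strand, Cenpf at chr1:189688087-189688226 on the minus strand, Top2a at chr11:99024190-99024329 on the minus strand, Cdk1 at chr10:69352913-69353052 on the minus strand and Kif11 at chr19:37376242-37376381 on the plus strand.
Ube2c: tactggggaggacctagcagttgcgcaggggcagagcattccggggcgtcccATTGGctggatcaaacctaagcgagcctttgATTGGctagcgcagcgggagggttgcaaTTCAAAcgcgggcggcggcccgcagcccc
Cenpf: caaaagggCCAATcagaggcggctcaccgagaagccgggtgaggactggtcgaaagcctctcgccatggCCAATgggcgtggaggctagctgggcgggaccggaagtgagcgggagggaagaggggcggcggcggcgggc
Top2a: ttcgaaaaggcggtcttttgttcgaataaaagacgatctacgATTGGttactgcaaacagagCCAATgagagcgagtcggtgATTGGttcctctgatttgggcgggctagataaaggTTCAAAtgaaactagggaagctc
Cdk1: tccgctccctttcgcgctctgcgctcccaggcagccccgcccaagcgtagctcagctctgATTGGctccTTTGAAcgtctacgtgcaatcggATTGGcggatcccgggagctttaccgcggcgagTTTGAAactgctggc
Kif11: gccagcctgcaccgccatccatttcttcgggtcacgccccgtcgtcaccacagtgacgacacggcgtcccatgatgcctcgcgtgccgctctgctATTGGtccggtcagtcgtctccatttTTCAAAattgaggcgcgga
Ube2c, one of the rule genes, has 2 CCAAT boxes and 1 TTTGAA, while Cenpf, another of them, has 2 CCAAT boxes and no TTTGAA in this stretch. Top2a has 3 CCAAT boxes and 1 TTTGAA, Cdk1 has 2 of each, and Kif11 has 1 of each. Cdk1, the kinase that starts mitosis, had 319 CPM in cycling against 61.0 in other CD8 T cells of set 1 (ratio 5.24, 4.53 to 6.07).

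DNA replication genes were higher too, but by less. All 33 outside the rule had an interval above 1 in set 1, as 18.9% of all 1044 genes did, while 15 were at least 2-fold higher, with a median log2 ratio of 0.91 and a range of 0.38 to 3.70. On the deposited scale 27 were higher by at least 0.1 in every set. Pcna, the replication clamp, had 598 CPM in cycling and 367 in other CD8 T cells (ratio 1.63, 1.52 to 1.75), and its mean was 1.62, 1.77, 1.64, 1.71, 1.77 and 1.70 in cycling cells of sets 1 to 6 and 1.00, 0.763, 0.833, 0.955, 0.885 and 0.826 in the others. Mcm5, part of the replicative helicase, had a ratio of 1.58 (1.40 to 1.79), and Hells, a chromatin remodeler, one of 1.34 (1.2 to 1.50). Rrm1, the partner subunit of Rrm2, had a larger one of 3.06 (2.75 to 3.40). Esco2, which joins sister chromatids in S phase, had the highest log2 ratio of CPM + 1 among genes outside the rule with at least 20 UMIs, 3.70. Its ratio was 16.2 (9.42 to 30.1), from 208 and 14 UMIs. Other CD8 T cells thus held more of the replication than of the mitosis transcripts in relation to cycling cells. When these others were limited to cells with a score below 0.2 and few granzymes C to F, the replication median was 1.93 and the mitosis median 3.15. Of 6 histone genes, 3 were at least 2-fold higher, led by Hist1h2bc at 136 against 27.8 CPM.

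**Figure D3:**
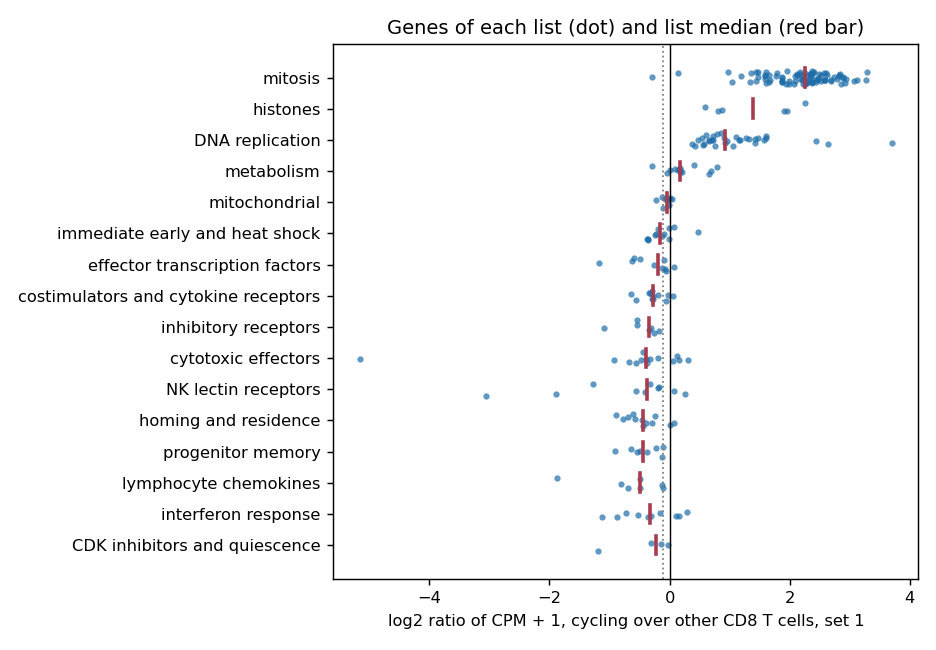
Log2 ratio of CPM + 1 between cycling and other CD8 T cells of set 1 (x axis) for genes with at least 20 UMIs, 1 dot per gene, by gene list (y axis), with the list median as a red bar and the median of all 1044 genes, -0.11, as a dotted line. Mitosis genes centre on 2.26 and replication genes on 0.91, while the lists of T cell function lie near or left of the dotted line.

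Of the 125 higher genes, 21 were in none of the 3 lists. Prr11, which acts in late cell cycle, had a ratio of 7.33 (4.71 to 11.9). Espl1, or separase, which cuts cohesin at anaphase, had one of 6.13 (4.29 to 9.01), Kpna2, a nuclear import carrier, 4.90 (3.69 to 6.59), and Spdl1, a kinetochore protein, 4.64 (3.35 to 6.54). Skp2, which directs the CDK inhibitor p27 to breakdown, had 26.1 against 11.6 CPM, a ratio of 2.25 (1.55 to 3.32). Lockd, a noncoding RNA beside Cdkn1b, had 174 against 71.8 CPM. Ly6k, a surface protein of the Ly6 family, had a ratio of 3.26 (1.91 to 5.81), and Nefh, a neurofilament subunit, one of 2.27 (1.59 to 3.27). Each of these 8 genes was higher in all 6 sets, which was a condition for naming them and is no result.

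The rule genes themselves were used to divide cycling cells by step. By the replication pair (mean of Pclaf and Rrm2) and the mitosis pair (mean of Ube2c and Cenpf), each with the threshold of 0.8, 901 cells passed the replication pair only, 1383 both and 271 the mitosis pair only, or 35.3%, 54.1% and 10.6%. The shares over the sets were 32.1% to 38.2%, 51.6% to 56.4% and 10.1% to 11.5%. In set 1 the 3 subclasses had 115, 176 and 33 cells, with median depths of 9165, 8825.5 and 6706 UMIs. Within cycling cells the mean of the 33 replication genes and the mean of the 89 mitosis genes were inversely related, with Pearson's r of -0.203 to -0.415 over the 6 sets, as a description across 283 to 664 cells that share libraries and depth. These cells were chosen for a high sum of both pairs, and the part of that choice in the inverse relation was not tested.

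**Figure D4:**
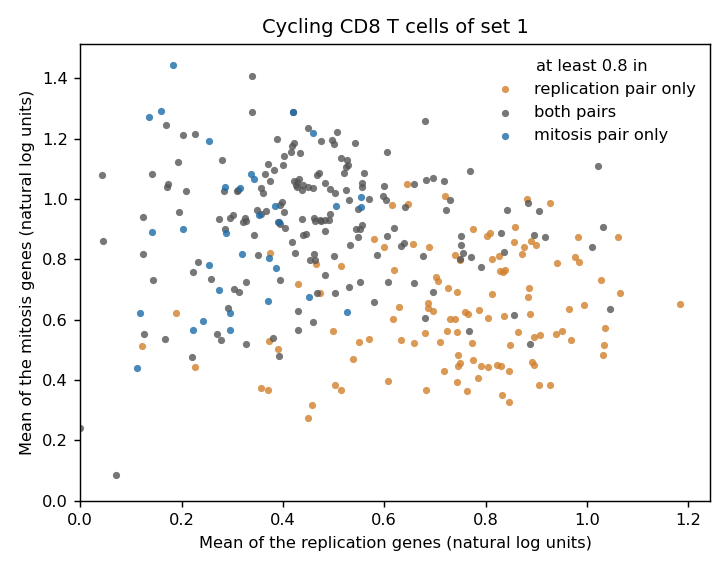
Mean value of 33 replication genes (x axis) against mean value of 89 mitosis genes (y axis), in natural log units and without the rule genes, for the 324 cycling CD8 T cells of set 1, 1 point per cell, coloured by which pair of rule genes reached 0.8. Cells that passed the replication pair only (115, orange) lie to the lower right, and cells with both pairs (176, grey) or the mitosis pair only (33, blue) lie to the upper left, with no gap between them.

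Replication transcripts were highest in replication-pair cells and cyclin B transcripts in mitosis-pair cells, with cells of both pairs between in the genes named here. Pcna went from 860.1 CPM through 461 to 257 in set 1, a ratio of mitosis-pair to replication-pair cells of 0.299 (interval 0.226 to 0.388). Cdc6, which loads the helicase onto origins, went from 118 CPM through 37.1 to 13.1, a ratio of 0.111 (interval 0.0226 to 0.330). Gins2, a helicase subunit, had 76, 76 and 0 UMIs in the 3 subclasses, and the interval of its ratio reached up to 0.279. Pcna and Cdc6 were lower in mitosis-pair cells in every set, by values of -1.50 to -1.14 natural log units for Pcna and -0.653 to -0.480 for Cdc6. Ccnb1, cyclin B1, went the other way, from 45.0 CPM through 155 to 239.6, a ratio of 5.33 (interval 3.62 to 7.84). Ccnb2, cyclin B2, went from 63.6 CPM through 199 to 339.8, and Cdc20, an activator of the anaphase-promoting complex, from 52.0 CPM through 171 to 244. Cenpa, the centromeric histone, went from 217 CPM through 561 to 775. All 4 were higher in mitosis-pair cells in every set. Top2a and Mki67 were spread over the whole class, with ratios of 1.51 (interval 1.30 to 1.74) and 1.73 (interval 1.44 to 2.08). Of 679 genes with at least 20 UMIs, 73 were at least 2-fold higher in mitosis-pair than in replication-pair cells (10.8%) and 90 at least 2-fold lower (13.3%). Mitosis genes held 44 of their 87 measured members among the higher ones, with a median log2 ratio of 1.00, and replication genes 26 of 33 among the lower ones, with a median of -1.42. The median over all 679 genes was 0.12. The subclasses were made from 4 genes of the same cells, so this too is a description.

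Some genes of T cell function and metabolism also differed between the steps. Xcl1, the chemokine that draws cross-presenting dendritic cells, went from 397 CPM through 197 to 169.9, and it was lower in mitosis-pair cells of every set, by values of -0.467 to -0.0788. Idi1, of sterol and isoprenoid synthesis, went from 141 CPM through 84.2 to 56.6, and Srm, which makes spermidine, from 59.7 CPM through 28.1 to 8.71, with 2 UMIs in the mitosis-pair cells and a ratio of 0.146 (interval 0.0174 to 0.545). Perforin, Prf1, went from 877 CPM through 687 to 484, a ratio of 0.551 (interval 0.449 to 0.670), and was lower in each set by values of -0.496 to -0.0915. The chemokine receptor Cxcr6 went from 423 CPM through 503 to 679.5 and the inhibitory receptor Ctla4 from 456 CPM through 505 to 841, with higher mean values in mitosis-pair cells of all 6 sets. Gzma, granzyme A, had a ratio of 5.24 (interval 3.56 to 7.69) in summed UMIs but differences of -0.118 to 0.177 over the sets, so its direction was not the same in all. Mitosis-pair cells were the shallowest and the fewest, and the part of depth was not tested.

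Of the 1984 genes outside the rule, the one with the lowest difference between cycling and other CD8 T cells in each of the 6 sets was Ccl5, the chemokine RANTES, which T cells make late after activation and keep as memory cells. Its mean value was 1.33, 1.45, 1.29, 1.22, 1.2 and 0.878 in cycling cells of sets 1 to 6, against 2.24, 2.21, 2.34, 2.38, 2.36 and 2.02 in other CD8 T cells. Every cycling value lay below every value of the others, the 6 differences running from -1.16 to -0.755. In set 1 Ccl5 had 541 CPM in cycling and 1986 CPM in other cells, a ratio of 0.273 (0.259 to 0.287) and a log2 ratio of -1.87. In cells of 3000 to 12000 UMIs the log2 ratio was -1.33, and against other CD8 T cells of low score and few granzymes C to F it was -2.54. After each cell was thinned to 1000 UMIs, which left no cell out, 32.5% (95% CI 27.4 to 37.9) of cycling and 56.0% (95% CI 52.2 to 59.6) of other CD8 T cells had a Ccl5 UMI, against 70.9% and 75.2% before thinning. Hepatoma cells (mean of Afp, Alb and Trf at 3 or more, with no CD3, CD8 or C1q signal), which should lack it, stood at 1.01% after thinning and 11.3% before, at a median depth of 11611.5 UMIs.

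Of 1984 genes, 12 were lower by at least 0.1 natural log units in cycling cells of each set (0.605%). They were Ccl5, Ccl4, Trbc1, Nr4a2, Cxcr6, Nkg7, Fgl2, Cd52, Ctla2a, Lilr4b, Laptm5 and H2-K1, of which Cd52, Laptm5 and H2-K1 were named only for this count, after their values were seen. Cxcr6, the receptor that holds T cells in tissue near CXCL16, had means of 1.63, 1.6, 1.50, 1.52, 1.58 and 1.50 in cycling and 2.06, 2.02, 1.94, 2.06, 2.02 and 1.98 in other CD8 T cells of sets 1 to 6, with no overlap. In set 1 it had 484 against 901 CPM (ratio 0.537, 0.506 to 0.570), with a log2 ratio of -0.65 in cells of 3000 to 12000 UMIs. At 1000 UMIs 38.8% (95% CI 33.4 to 44.3) of cycling and 58.0% (95% CI 54.3 to 61.7) of other cells had a Cxcr6 UMI, against 0.144% of hepatoma cells, while before thinning the shares were 90.3%, 89.6% and 3.12%. The homing list as a whole had a median log2 ratio of -0.44 over 12 genes. None of them was at least 2-fold changed, beside 12% higher and 3.83% lower of all genes.

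Trbc1, one of the 2 constant regions of the T cell receptor beta chain, differed between the classes while its neighbour was part of the rule. Its means were 1.15, 1.03, 1.05, 0.789, 0.959 and 0.777 in cycling and 1.58, 1.53, 1.63, 1.61, 1.71 and 1.59 in other CD8 T cells of sets 1 to 6. Cycling cells were lower in each set, and the sets did not overlap. The log2 ratio in set 1, -0.88, was -0.73 in cells of 3000 to 12000 UMIs and -0.43 with a cycling threshold of 1.2. At 1000 UMIs 27.5% (95% CI 22.7 to 32.7) of cycling and 44.2% (95% CI 40.5 to 47.9) of other cells had a Trbc1 UMI, against 0.481% of hepatoma cells, and before thinning the shares were 65.3%, 68.4% and 5.29%. In set 1 Trbc1 made up 15.3% (CI 14.5 to 16.1) of the UMIs of Trbc1 and Trbc2 together in cycling cells and 23.3% (CI 22.5 to 24.1) in the others. Trbc1 and Trbc2 are near-identical copies, so the split of reads between them is uncertain.

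Other genes of this group differed by less than Ccl5. In set 1 the log2 ratios of Lilr4b (-1.09) and Fgl2 (-1.12) lay below those of Cxcr6 (-0.89) and Trbc1 (-0.88). Nkg7, a granule protein of killer cells, had 899 against 1253 CPM in set 1 (ratio 0.718, 0.686 to 0.751) and differences of -0.342 to -0.198 over the sets. Ccl4, or MIP-1 beta, had 809 against 1136 CPM and differences of -0.841 to -0.339. Nr4a2, a nuclear receptor induced by receptor signalling, had 654 against 989.8 CPM. Lilr4b, which was counted in the inhibitory receptor list though its own function may differ, had 72.8 against 156 CPM. Fgl2, an immune regulator made by T cells, had a ratio of 0.456 (0.387 to 0.534). All 5 were lower in cycling cells of each set. Gzmg had the lowest log2 ratio of CPM + 1 among genes with at least 20 UMIs, -5.16. It came from 2 UMIs in cycling and 206 in other cells, a ratio of 0.0106 (0.00127 to 0.0386). Gzmg lies with Gzmc to Gzmf in 1 gene cluster, and the rule removed cells rich in those from the cycling class only.

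**Figure D5:**
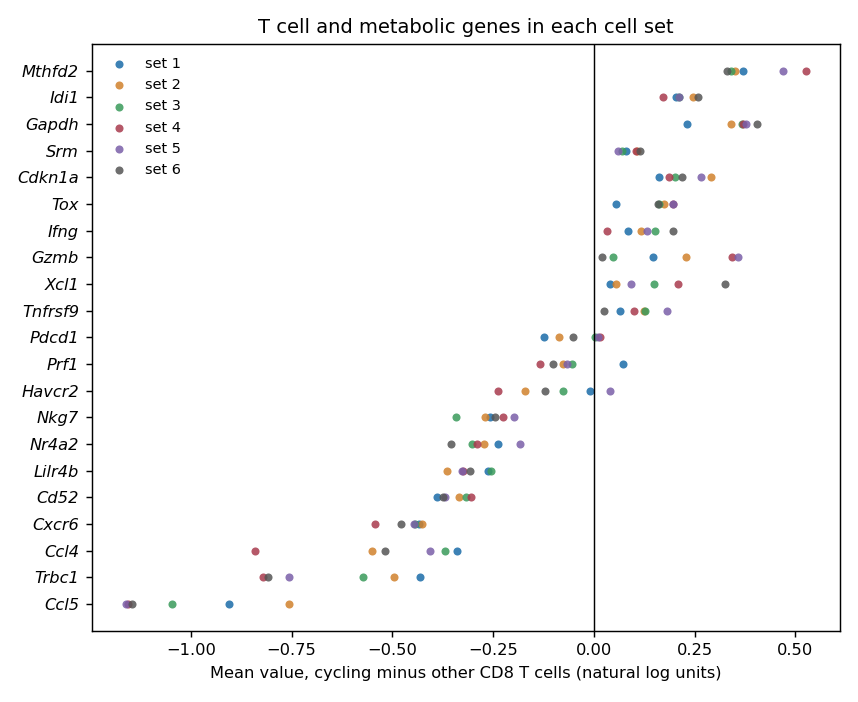
Mean value in cycling minus mean value in other CD8 T cells (x axis, natural log units) for 21 genes (y axis), 1 point per cell set. Ccl5 lies, of the 21 genes plotted, farthest to the left at -1.16 to -0.755 and Mthfd2 farthest to the right at 0.330 to 0.527, while Pdcd1, Prf1 and Havcr2 have points on both sides of 0.

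The killing genes gave no single direction. The median log2 ratio of 14 cytotoxic effector genes was -0.39 in set 1, with none at least 2-fold higher and 1, Gzmg, lower. Of all genes 12% were at least 2-fold higher and 3.83% lower, so these counts are no result about the list. Gzmb, granzyme B, had 1062 CPM in cycling and 1386 in other CD8 T cells, a log2 ratio of -0.38, but 0.25 against other cells of low cycling score and few granzymes C to F. Its mean deposited value was higher in cycling cells of all 6 sets, by 0.0195 to 0.357, and at 1000 UMIs 45.6% (95% CI 40.1 to 51.3) of cycling and 40.4% (95% CI 36.8 to 44.1) of other cells had a Gzmb UMI, against 0.721% of hepatoma cells (76.2%, 60.0% and 6.25% before thinning). Prf1 likewise had a log2 ratio of -0.39, and 0.13 against those cells of low score and few granzymes, with 745 and 976 CPM in the main comparison and differences of -0.134 to 0.0727 over the sets. At 1000 UMIs 41.6% (95% CI 36.1 to 47.2) and 42.4% (95% CI 38.7 to 46.1) of cells had a Prf1 UMI, against 0.433% of hepatoma cells (84.1%, 73.1% and 5.48% before thinning). Ifng, interferon gamma, had 858 against 789 CPM, a log2 ratio of 0.12 that was -0.16 after thinning and -0.04 in cells of 3000 to 12000 UMIs. No direction is drawn for Gzmb, Prf1 or Ifng.

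Inhibitory receptors and memory genes had list medians below 0 per UMI, which the deposited values did not share set by set. The median log2 ratio was -0.35 for 7 inhibitory receptor genes and -0.43 for 8 progenitor and memory genes, against -0.11 over all genes, and it was below 0 under all 12 other settings for both lists. On the deposited scale 1 of 7 and 1 of 9 were below 0 in all 6 sets, beside 6.6% of all genes. The same numbers were above 0, beside 23.8% of all genes. Most members kept no sign over the sets, so no direction is drawn for either list. Pdcd1, which encodes PD-1, had 708 against 874 CPM (ratio 0.810, 0.768 to 0.854), with differences of -0.124 to 0.0162 over the sets, so both signs occurred. At 1000 UMIs 50.3% (95% CI 44.7 to 55.9) of cycling and 56.9% (95% CI 53.2 to 60.6) of other cells had a Pdcd1 UMI, against 0.529% of hepatoma cells (93.4%, 88.8% and 5.77% before thinning). Havcr2, or TIM-3, had 189 against 227 CPM. Tox, a transcription factor of exhausted T cells, had 293 against 334 CPM, a ratio of 0.879 (0.808 to 0.957), yet its mean deposited value was higher in cycling cells of each set, by 0.0555 to 0.196. Il7r, the interleukin-7 receptor of memory cells, had 27.6 against 52.6 CPM in set 1 (ratio 0.524, 0.406 to 0.674), with differences of -0.0923 to 0.0214 over the sets. The mean of log values and the ratio of sums weight cells differently, and depth differed between the classes, so genes on which the scales differ in sign are left without a direction.

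Metabolic genes had a list median above 0. Of 13 genes for glycolysis, sterol, folate and polyamine metabolism, none was 2-fold changed, beside 12% higher and 3.83% lower of all genes. An interval above 1 was found for 6 of them, beside 18.9% of all genes, and 11 were above 0 in all 6 sets, beside 23.8% of all genes, with a median log2 ratio of 0.17. Mthfd2, of the mitochondrial folate pathway that feeds purine and thymidylate synthesis, had means of 0.720, 0.733, 0.659, 0.774, 0.753 and 0.673 in cycling and 0.350, 0.382, 0.318, 0.246, 0.284 and 0.343 in other CD8 T cells of sets 1 to 6. Each cycling value was above each of the others. In set 1 it had 162 against 93.6 CPM (ratio 1.73, 1.51 to 1.99), with a log2 ratio of 0.68 in cells of 3000 to 12000 UMIs. Srm had 38.7 against 23.7 CPM (ratio 1.63, 1.24 to 2.16) and Idi1 104 against 65.3 CPM (ratio 1.59, 1.35 to 1.88). The glycolytic genes Gapdh and Pgk1 had ratios of 1.06 (1.02 to 1.12) and 1.13 (1.07 to 1.19), close to equal, with larger differences on the deposited scale, 0.232 to 0.406 and 0.302 to 0.566 natural log units.

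Genes that hold cells out of division were few in the table. Of 4 CDK inhibitor and quiescence genes with at least 20 UMIs, Trp53inp1, a p53 target, was at least 2-fold lower, at 24.9 against 58.0 CPM (ratio 0.430, 0.331 to 0.555), and lower in every set. Of all genes 3.83% were at least 2-fold lower. Cdkn1a, the CDK inhibitor p21, was at 141 and 144 CPM (ratio 0.984, 0.868 to 1.11), while its mean deposited value was higher in cycling cells of each set, by 0.161 to 0.290. Klf2, a factor of resting T cells, was at 139.7 and 153 CPM.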

How the data were processed

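Per the labels' protocols, dissociated tumours went through a DNBelab C4 droplet system, which reads the 3′ ends of transcripts of single cells. Per the submitters' processing notes STAR 2.7.2b was among the tools, and both GRCh38 and mm10 are named as builds; the build behind the table is not settled, and RefSeq promoters were matched by symbol only. The table holds 2000 genes and 53528 cells, all of them columns of no known sample, as natural log values that the authors deposited. Set 1 values equal the natural log of UMIs per 10000 plus 1: a UMI total was found for 100% of its cells (tolerance 1e-06), and 100% of its nonzero values were then whole counts within 0.01. In sets 2 to 6 every cell had values below 0, from a step not given in the sources used here, and totals came out for 12.5% to 29.5% of the cells. Whether the sets are independent is unknown. Cell names are running numbers, 3141 to 5113 of which any 2 sets share, so shared barcodes could not be counted.

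Set 1 counts were summed per class, divided by the cells' UMI totals as CPM, and compared as log2 ratios with a pseudocount of 1 CPM for genes with at least 20 UMIs over both classes, with 95% intervals. Scrublet, in scanpy 1.11.5 with an expected rate of 6%, called as doublets 91 of 9370 set 1 cells, or 0.971%, which were left out of set 1 ratios and kept in shares. Cells were thinned to 1000 UMIs for shares of cells with a UMI. For sets 2 to 6 differences of mean deposited values are given. No p-value was computed, since the classes were defined on the values of the same cells, no set is tied to a labelled sample and cells are not replicates. The scripts were tested on simulated data. Other thresholds, pseudocounts, comparison cells and depths were tried.

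The members and the gene lists were chosen with earlier results of these data known. Genes named are list members, and the 15 of highest and of lowest log2 ratio among genes with at least 50 UMIs and the same sign in all 6 sets, for the high end also outside the replication, mitosis and histone lists. Any other is said to be named after its values were seen.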

Additional observations from a re-analysis of the deposited data

How the results depend on the processing

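The share of CD8 T cells that were cycling, 25.6%, was 33.0% with a threshold of 0.5, 16.7% with 1.2, 27.1% with granzyme-rich cells kept and 28.5% with Mki67, Top2a, Birc5 and Cdk1 as the score, an alternative added after seeing the data, as were cells of 3000 to 12000 UMIs. The count of at least 2-fold higher genes, 125, was 105 to 155 under 12 alternatives. The lower count, 40, was 68 with threshold 1.2, 6 with a pseudocount of 10 CPM, 70 with no minimum of UMIs, 62 as a mean over cells and 71 against CD8 T cells of low score and few granzymes C to F. The replication median, 0.91, was 1.17 with threshold 0.5, 0.32 with 1.2, 1.19 as a mean over cells, 1.32 thinned and 1.93 against the low-score cells. The mitosis median, 2.26, was 1.87 with threshold 1.2, 1.85 with a pseudocount of 10 CPM and 3.15 against the low-score cells. The effector median, -0.39, was -0.48 with threshold 0.5, -0.29 with 1.2, -0.31 with granzyme-rich cells kept, -0.15 against the low-score cells and -0.27 in cells of 3000 to 12000 UMIs. The direction reversed for Ifng (0.12), to -0.26 with threshold 1.2, -0.13 as a mean over cells, -0.16 thinned, -0.032 against the low-score cells and -0.036 in cells of 3000 to 12000 UMIs. It reversed for Gzmb (-0.38), to 0.25, and for Prf1 (-0.39), to 0.13, against the low-score cells. The cause of these changes was not tested. The inhibitory receptor median ran from -0.48 to -0.29 and the progenitor and memory median from -0.71 to -0.16 over the same 12 alternatives, where the median of all genes ran from -0.17 to -0.074. No paired analysis was possible because the labels tie no set to a sample and the genes were compared between classes defined on the same cells, with no test, so the differences within each set stand as descriptions. Doublets and depth were known for set 1 alone, and intervals cover counting error only.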

Other observations

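Some genes named above for cycling CD8 T cells were also read in T cells outside the class, which the rule had kept out. Among CD8 T cells rich in granzymes C to F, 146 that met the cycling threshold were set beside 333 that did not, and among CD4 T cells 130 beside 752, over all sets. Mthfd2 was higher in those that met the threshold in all 6 sets of both, at 0.974 against 0.427 natural log units in granzyme-rich CD8 T cells and 0.698 against 0.292 in CD4 T cells. Idi1 was higher in all 6 sets of both as well. Cxcr6 was lower in all 6 sets of both, at 1.34 against 2.05 and 0.848 against 1.23. So were Il7r and Cd52, the latter named above after its values were seen. Ccl5, Ccl4 and Nr4a2, all lower in every set of cycling CD8 T cells, did not keep 1 direction here. Ccl5 was lower in all 6 sets of granzyme-rich CD8 T cells, at 0.750 against 1.37, with set differences of -1.09 to -0.294, and higher in 4 of 6 sets of CD4 T cells, at 0.724 against 0.588, with set differences of -0.0570 to 0.219. The difference between the 2 kinds was not tested, and depth was not matched. Ccl4 was lower in all 6 sets of CD4 T cells that met the threshold, with set differences of -0.679 to -0.260, but higher in 4 of 6 sets of granzyme-rich CD8 T cells, with differences of -0.432 to 0.451. Nr4a2 was higher in all 6 sets of CD4 T cells, with differences of 0.0366 to 0.480, and in 3 of 6 sets of granzyme-rich CD8 T cells. Prf1 and Havcr2 were lower in all 6 sets of granzyme-rich CD8 T cells that met the threshold, at 2.49 against 2.91 for Prf1 and 1.04 against 1.43 for Havcr2. Between cycling and other CD8 T cells, Il7r, Prf1 and Havcr2 had differences of both signs over the sets.

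Of 10 interferon-response genes with at least 20 UMIs, 1 was at least 2-fold lower in cycling CD8 T cells of set 1 and none higher, beside 3.83% lower and 12% higher of all genes, with a median log2 ratio of -0.33. The 12 immediate-early and heat-shock genes had a median of -0.16 and the 9 mitochondrially encoded genes one of -0.05, near the -0.11 of all genes. The 10 genes of NK-type lectin receptors had a median of -0.37, with 3 at least 2-fold lower, beside 3.83% of all genes. These were Klra3 with 20 and 58 UMIs in cycling and other cells, Klra5 with 2 and 18, and Klra9 with 0 and 27, named after their values were seen because of this count. Over all sets their mean deposited values were near 0 in both classes. In cycling and other CD8 T cells they were 0.0264 and 0.0259 for Klra3, 0.00102 and 0.00411 for Klra5, and 0.000754 and 0.0149 for Klra9. No direction is drawn for these genes.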
